A study of Homo sapiens with 44 samples.

Results

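The CC chemokine cluster studied here is a stretch of chromosome 17 that holds the genes CCL2, CCL7, CCL11, CCL8 and CCL13, in that order along the + strand. Its members are all peaks of the deposited chromatin accessibility table that the table assigns to one of those genes, 80 of 407383 peaks, with 30 for CCL2, 3 for CCL7, 18 for CCL11, 23 for CCL8 and 6 for CCL13. Accessibility was measured by ATAC-seq, a method in which open DNA is cut and tagged by a transposase, in the human colon fibroblast line Ccd18-Co. The 44 libraries formed 11 groups of 4, one unstimulated and the others given TNF, IL1B, IL17A, IFNG, IFNA, IL13, OSM, IL6, IL22 or TGFB1, written below as TNF, IL-1β, IL-17A, IFNγ, IFNα, IL-13, OSM (oncostatin M), IL-6, IL-22 and TGFβ1. Per the study's methods, cells that had attached to the culture plates were first starved in medium without serum. Cytokines were then added, also in medium without serum. Per the labels each cytokine was given at 10 ng/ml except IL-1β, at 0.1 ng/ml. The study's own descriptions differ on the IL-1β dose, but all put it below that of the others, so that any comparison of IL-1β with another cytokine is also one of doses. All groups come from this single line. Nothing in the labels says that the 4 libraries of a group came from separate cultures, and the p-values below then measure the spread between these libraries, which may be technical.

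CC chemokines are small secreted proteins that draw leukocytes along a gradient by binding receptors coupled to G proteins. CCL2, CCL7, CCL8 and CCL13 are the monocyte chemoattractant proteins (CCL2 is MCP-1) and act mainly through CCR2 and related receptors, and CCL11, eotaxin, draws eosinophils through CCR3. Fibroblasts are a known source of these chemokines in inflamed gut. NF-κB and AP-1, which TNF and IL-1 signalling switch on, and STAT factors, which interferons, OSM, IL-6 and IL-13 switch on, are known regulators of genes of this family.

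Values are coverage in a peak per megabase (Mb) of coverage in all peaks of the library, after a composition factor, and are given as mean ± SD over the 4 libraries of a group. Changes are differences on the log2(coverage per Mb + 0.5) scale from a limma fit of all 44 libraries, with raised and lowered peaks being those whose Benjamini-Hochberg adjusted p over 407174 tested peaks was under 0.05. All 80 member peaks passed the low-value filter and were tested. The libraries held between 149 and 823 Mb of coverage in peaks, with a median of 416 Mb. The library labelled IL-6 replicate 4 stood apart with the lowest coverage and the lowest quality weight, 0.324, and IL-6 values that it moves are also given without it. A floor of 3 reads, which covers counting error only, corresponded to 0.285 to 1.55 per Mb depending on the library. Promoter peaks of 6 of 8 fibroblast marker genes were listed, with none listed for PDGFRA or THY1. Marker values are means over all 44 libraries of the highest promoter peak of a gene. They ran from 1.61 to 25.1 per Mb for the fibroblast genes. Promoter peaks were also listed for 1 of 5 epithelial, 4 of 4 endothelial and 2 of 6 leukocyte marker genes, with KRT8 at 4.58, the endothelial genes at 0.385 to 1.56, CD14 at 1.59 and CSF1R at 3.51 per Mb. In bulk samples, a larger share of cells with an open site and a wider opening in each cell cannot be told apart.

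Peaks are named below by the signed distance of their centre from the annotated start of their gene (hg38, GENCODE 44), negative upstream. The annotated genes span chr17:34255274-34257208 for CCL2, chr17:34270221-34272242 for CCL7, chr17:34285742-34288334 for CCL11, chr17:34319435-34321402 for CCL8 and chr17:34356480-34358610 for CCL13. The member peaks, each 500 bases wide from start to end, run over 130.7 kb, from chr17:34225967 to chr17:34356700. The deposited table classes 64 of them as distal, 9 as promoter, 4 as exonic and 3 as intronic, and 66 are intergenic in GENCODE. CCL7 and its neighbours are close paralogs, and how reads matching more than one place were handled for this table is not given in the sources used here.

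The central 300 bases of 5 intergenic peaks are printed first because changes that the results below turn on fall in them. They are the CCL2 -19.7 kb peak (chr17:34235427-34235726), which had the largest rise with TNF and IL-1β, and the CCL2 +2.67 kb peak (chr17:34257792-34258091), downstream of the same gene. The CCL11 +15.42 kb peak (chr17:34301010-34301309) fell with 4 cytokines, the CCL8 -12.06 kb peak (chr17:34307229-34307528) rose with 4, and the CCL13 -1.68 kb peak (chr17:34354656-34354955) rose with IFNγ, OSM and IL-13. All are written 5′ to 3′ on the + strand of hg38. Capitals mark matches, on either strand, to the NF-κB consensus, AP-1 (TGANTCA), an interferon-stimulated response element core (ISRE, AAANNGAAA), a STAT site (TTCNNNGAA) or a STAT6 site (TTCNNNNGAA), and matches can overlap one another. The CCL2 peak upstream holds 2 NF-κB matches, the CCL2 peak downstream an AP-1 and an ISRE match, the CCL11 peak ISRE and STAT6 matches, the CCL8 peak an NF-κB and an ISRE match, and the CCL13 peak an ISRE and a STAT6 match.
CCL2 -19.7 kb peak: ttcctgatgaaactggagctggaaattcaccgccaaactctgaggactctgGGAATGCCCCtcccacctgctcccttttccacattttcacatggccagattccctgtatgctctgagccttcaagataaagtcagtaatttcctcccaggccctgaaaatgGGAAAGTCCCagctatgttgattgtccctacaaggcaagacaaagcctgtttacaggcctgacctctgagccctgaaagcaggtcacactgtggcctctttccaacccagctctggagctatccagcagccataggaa
CCL2 +2.67 kb peak: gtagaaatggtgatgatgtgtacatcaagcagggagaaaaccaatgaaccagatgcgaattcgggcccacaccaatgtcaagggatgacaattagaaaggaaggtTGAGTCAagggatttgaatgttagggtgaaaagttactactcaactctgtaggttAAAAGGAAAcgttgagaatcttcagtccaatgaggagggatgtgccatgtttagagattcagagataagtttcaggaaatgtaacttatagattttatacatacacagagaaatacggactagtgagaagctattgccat
CCL11 +15.42 kb peak: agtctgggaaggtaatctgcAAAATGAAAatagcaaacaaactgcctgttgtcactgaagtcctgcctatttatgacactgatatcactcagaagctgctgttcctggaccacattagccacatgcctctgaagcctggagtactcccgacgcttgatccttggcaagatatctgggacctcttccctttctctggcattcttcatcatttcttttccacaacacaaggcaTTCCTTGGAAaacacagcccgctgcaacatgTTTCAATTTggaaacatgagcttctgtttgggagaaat
CCL8 -12.06 kb peak: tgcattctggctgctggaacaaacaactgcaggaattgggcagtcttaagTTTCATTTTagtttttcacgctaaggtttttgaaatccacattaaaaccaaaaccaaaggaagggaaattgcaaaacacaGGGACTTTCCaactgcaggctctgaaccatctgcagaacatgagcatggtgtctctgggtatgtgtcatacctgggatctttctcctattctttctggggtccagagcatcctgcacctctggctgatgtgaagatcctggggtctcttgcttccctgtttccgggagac
CCL13 -1.68 kb peak: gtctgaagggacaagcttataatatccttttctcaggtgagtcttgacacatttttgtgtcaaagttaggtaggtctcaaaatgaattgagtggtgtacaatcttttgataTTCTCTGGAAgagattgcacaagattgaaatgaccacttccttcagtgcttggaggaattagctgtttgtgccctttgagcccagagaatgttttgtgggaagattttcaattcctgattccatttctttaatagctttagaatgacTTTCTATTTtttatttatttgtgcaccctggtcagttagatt

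The RefSeq promoter table (GRCh38.p14) matched 3 of the 5 genes, CCL7, CCL8 and CCL13. The 250 bases before each start are shown for these genes only, because no entry was found for CCL2 and CCL11. The start-site peaks of the 3 genes passed the threshold against unstimulated cells with no cytokine, unlike those of CCL2 and CCL11. The printed stretches lie at chr17:34269971-34270220, chr17:34319185-34319434 and chr17:34356230-34356479, on the + strand. Capitals mark an AP-1 and a STAT match for CCL7 and a STAT match each for CCL8 and CCL13.
CCL7 promoter: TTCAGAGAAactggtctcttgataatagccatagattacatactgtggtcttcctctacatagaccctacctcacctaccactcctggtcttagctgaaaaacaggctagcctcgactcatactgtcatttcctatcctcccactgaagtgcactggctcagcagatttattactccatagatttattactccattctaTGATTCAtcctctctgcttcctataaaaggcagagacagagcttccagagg
CCL8 promoter: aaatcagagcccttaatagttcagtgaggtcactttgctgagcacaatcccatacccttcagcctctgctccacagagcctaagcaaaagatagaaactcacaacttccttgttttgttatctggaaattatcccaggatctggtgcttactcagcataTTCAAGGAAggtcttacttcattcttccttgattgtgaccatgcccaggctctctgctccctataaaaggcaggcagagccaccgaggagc
CCL13 promoter: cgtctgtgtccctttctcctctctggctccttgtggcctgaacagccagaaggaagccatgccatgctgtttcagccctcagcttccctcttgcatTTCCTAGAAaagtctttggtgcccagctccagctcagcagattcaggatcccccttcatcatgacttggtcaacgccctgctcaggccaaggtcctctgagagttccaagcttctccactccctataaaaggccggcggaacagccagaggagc

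In unstimulated cells the cluster was unevenly open. The CCL2 start-site peak was the highest of the 80, at 13.3 ± 1.30 per Mb, and the CCL11 +14.39 kb peak followed at 13.1 ± 3.22 per Mb, a difference within their spread. The median member peak stood at 0.764 per Mb, and the range was 0.0474 to 13.3. By gene the medians were 4.57 per Mb for the 3 CCL7 peaks, 1.13 for CCL2, 0.721 for CCL13, 0.538 for CCL8 and 0.510 for CCL11. Among start-site peaks, CCL2 was followed by CCL11 at 7.68 ± 2.22, CCL7 at 4.57 ± 1.32, CCL8 at 1.39 ± 0.662 and CCL13 at 0.680 per Mb. The CCL8 and CCL13 start-site peaks were thus near the floor, with 5.91 to 10.2 and 1.97 to 5.37 read equivalents per unstimulated library, and changes in them were measured with little depth.

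Against unstimulated cells, 31 of the 80 peaks were called for at least 1 cytokine, 18 of 30 for CCL2, 1 of 3 for CCL7, 3 of 18 for CCL11, 7 of 23 for CCL8 and 2 of 6 for CCL13, and 49 for none. The share of all peaks called for at least 1 cytokine was not computed, so these counts over all cytokines have no background beside them. Backgrounds are given for each cytokine. TNF raised 20 member peaks, where it raised 2.68% of all peaks, and 16 of the 20 belong to CCL2 and 4 to CCL8. It lowered 1, where it lowered 1.46% of all peaks. IL-1β raised 9 (background 1.44%), 7 of CCL2 and 2 of CCL8, and lowered 5 (background 1.75%), 3 of CCL11 and 1 each of CCL8 and CCL7. OSM raised 6 (background 4.12%) and lowered 3 (background 1.05%). IFNγ raised 4 (background 1.33%), IFNα raised 4 (background 0.356%) and lowered 1 (background 0.295%), and IL-13 raised 3 (background 0.756%). TGFβ1 lowered 8 (background 2.87%), 3 of CCL11, 2 each of CCL2 and CCL8 and 1 of CCL13. These counts describe the peaks assigned to the 5 genes, chosen with earlier results of these data known, and neighbouring peaks are not independent of each other.

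IL-17A, IL-6 and IL-22 called none of the 80 peaks in limma, with 11, 8 and 7 peaks at an unadjusted p under 0.05. Without IL-6 replicate 4 the IL-6 count was also 0. Their backgrounds at the adjusted threshold were 0.0305%, 0.0646% and 0.0840% of all peaks in either direction. These shares are no background for the 11, 8 and 7 peaks. The share of all peaks at an unadjusted p under 0.05 was not computed. With IL-17A the CCL2 -19.7 kb peak stood at 3.48, 4.07, 5.10 and 4.07 per Mb against 0.896, 1.53, 2.81 and 3.13 unstimulated (log2 difference 0.94, adjusted p = 0.394). The IL-17A libraries all lay above the unstimulated ones at that peak, and the difference did not pass the adjustment over all peaks.

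The median change over the 80 peaks was 0.30 on the log2 scale with TNF, where the median of all peaks was -0.02. It was 0.11 with IL-1β beside 0.01 for all peaks, and 0.16 with IL-13 beside -0.02. For the 30 CCL2 peaks the median was 0.99 with TNF and 0.50 with IL-1β, and for the 18 CCL11 peaks it was 0.48 with IL-13. With OSM it was -0.12 beside -0.10 for all peaks, and with TGFβ1 it was 0.00 beside 0.05. The scaling matters for the last pair. Under library totals, median-of-ratios scaling and loess offsets the median of all peaks became -0.21, -0.22 and 0.00 with OSM and 0.12, 0.16 and -0.01 with TGFβ1. The share of called peaks that were raised went from 79.6% to 55.8%, 53.0% and 58.4% with OSM and from 27.7% to 47.8%, 58.6% and 60.5% with TGFβ1. Among the member peaks, OSM went from 6 raised and 3 lowered to 4 and 3 under each of these scalings, and TGFβ1 from 0 and 8 to 1 and 7, 1 and 6, and 0 and 6.

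**Figure D1:**
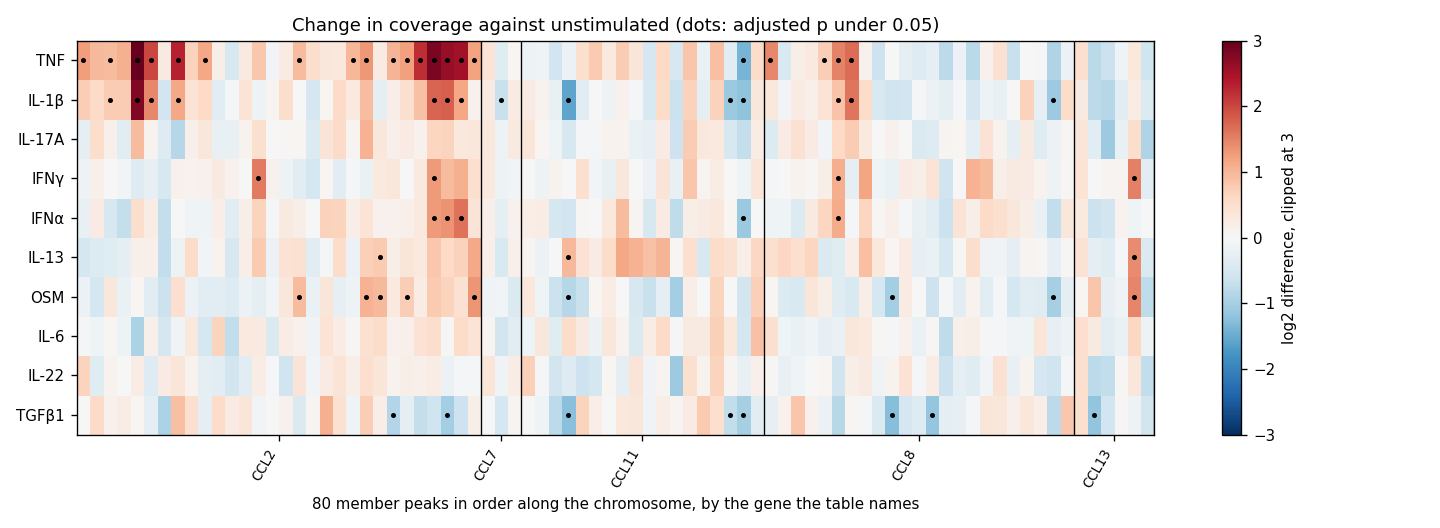
Log2 difference in coverage per Mb (+0.5) from unstimulated cells for each of the 80 member peaks, in order along the chromosome, and each of the 10 cytokines, with colours held at 3 and dots where the limma adjusted p was under 0.05. The 16 CCL2 peaks raised by TNF form the densest block of dots, and the IL-17A, IL-6 and IL-22 rows hold none.

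**Figure D2:**
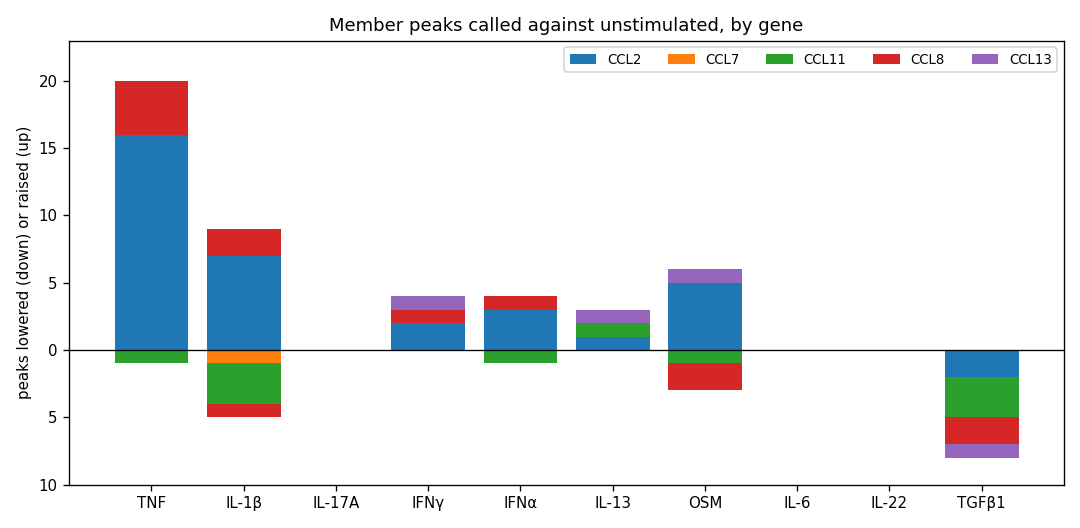
Number of member peaks raised (above 0) or lowered (below 0) at an adjusted p under 0.05 for each cytokine against unstimulated cells, coloured by gene. TNF has the tallest bar, with 20 raised, and TGFβ1 has 8 lowered and none raised.

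CCL2, the chemokine that recruits monocytes, had the most called peaks, 18 of 30, and also the most member peaks. At its start site (chr17:34254979-34255479, promoter class) the unstimulated libraries held 14.3, 11.5, 14.2 and 13.1 per Mb and the TNF libraries 29.3, 25.8, 26.6 and 28.0. The TNF libraries were all above the unstimulated ones (log2 difference 1.02, SE 0.16, limma adjusted p = 3.06e-07). The TGFβ1 libraries held 5.95, 8.19, 7.61 and 6.18 per Mb and were all below them (log2 difference -0.89, limma adjusted p = 2.13e-05). Of the other groups, 7 had means between 14.3 and 17.1 per Mb, in the order IFNγ, OSM, IL-1β, IL-17A, IL-13, IFNα and IL-22, and neighbours in that order did not differ beyond their spread. The IL-6 libraries held 12.2, 13.4, 13.7 and 19.9 per Mb, a mean of 14.8, and of 13.1 ± 0.773 without replicate 4, the highest of them, which puts the group beside the unstimulated one. IL-1β, at 15.3 ± 2.36 per Mb, was not called here (log2 difference 0.19, adjusted p = 0.738).

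The -19.7 kb peak had the largest change of the cluster. Its unstimulated libraries held 0.896, 1.53, 2.81 and 3.13 per Mb, its TNF libraries 28.7, 35.1, 28.0 and 27.5, and its IL-1β libraries 20.0, 13.7, 17.0 and 14.4. Neither cytokine group overlapped the unstimulated one, and the means were 14.2-fold higher with TNF (log2 difference 3.64, SE 0.29, adjusted p = 1.39e-25) and 7.78-fold higher with IL-1β (log2 difference 2.78, adjusted p = 5.89e-16). The site stood at 2.09 ± 1.06 per Mb without cytokine and at 29.8 ± 3.55 with TNF, where the start site stood at 27.4 ± 1.54, a difference within their spread. With IFNγ it held 1.47 and with IFNα 3.03 per Mb, and neither was called.

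Downstream of CCL2, a run of peaks rose with TNF, IL-1β and IFNα, while IFNγ was called only at the +2.13 kb peak of that run. The +2.13 kb peak (from chr17:34257151), which overlaps the last exon of CCL2, went from 1.68, 1.36, 0.600 and 0.599 per Mb to 10.6, 9.07, 8.74 and 12.0 with TNF (log2 difference 2.82, adjusted p = 1.51e-14) and to a mean of 4.59 with IL-1β (1.76, adjusted p = 7.1e-06). The +2.67 kb peak (chr17:34257691-34258191) held 0.619, 2.84, 2.45 and 1.33 per Mb unstimulated, 10.8, 12.2, 13.3 and 13.3 with TNF (2.60, adjusted p = 3.35e-14) and 7.88, 6.16, 7.20 and 6.34 with IL-1β (1.80, adjusted p = 5.38e-07). TNF and IL-1β libraries lay above all unstimulated ones at both peaks. IFNα raised the +2.13, +2.67 and +3.35 kb peaks, the last from 1.14, 1.85, 1.29 and 0.469 per Mb to 5.32, 4.09, 3.37 and 5.22 (1.62, adjusted p = 0.000859), and TNF raised it to a mean of 8.91 (2.52, adjusted p = 6.76e-11). At the +2.67 kb peak the IFNα libraries held 5.49, 6.41, 3.60 and 4.64 per Mb, all above the unstimulated range (1.36, adjusted p = 0.00234), and the adjusted p was 0.0938 without unstimulated replicate 1. IFNγ raised the +2.13 kb peak to 3.49, 2.88, 3.06 and 2.99 per Mb (1.28, adjusted p = 0.0057), with no overlap, and the call was lost without unstimulated replicate 3 (adjusted p = 0.0568) or 4 (0.0575). The IFNα call at that peak (1.29, adjusted p = 0.0127) was lost without unstimulated replicate 3 (0.101) or 4 (0.0931) and without IFNα replicate 1 (0.130), 2 (0.0733) or 4 (0.0813), and IFNα replicate 3, at 1.10 per Mb, lay inside the unstimulated range.

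**Figure D3:**
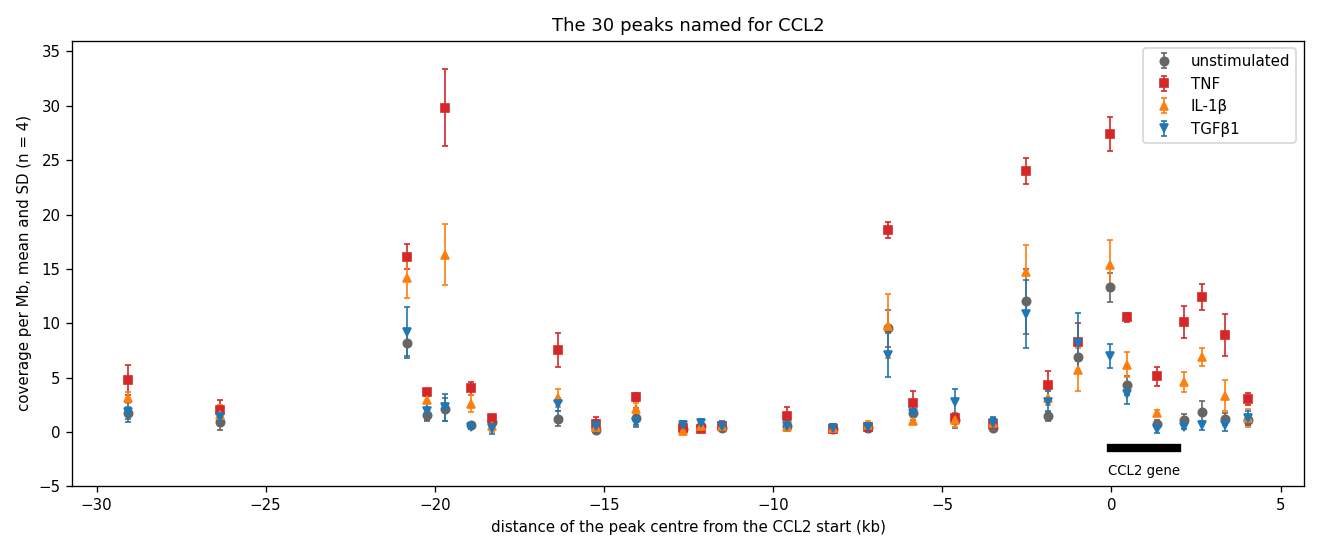
Mean coverage per Mb (points, bars are SD over 4 libraries) of the 30 CCL2 peaks against the distance of their centres from the CCL2 start in kb, for unstimulated, TNF, IL-1β and TGFβ1 cells. With TNF the -19.7 kb peak, at 29.8 per Mb, stands as high as the start-site peak at 27.4, and with TGFβ1 the start-site peak is at 6.98.

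Other CCL2 peaks were raised by IFNγ, OSM or IL-13. IFNγ raised the -9.6 kb peak (from chr17:34245426) from 0.719, 0.566, 0.679 and 0.267 per Mb to 2.48, 2.35, 2.45 and 3.06, with no overlap (1.56, adjusted p = 0.00917), and the adjusted p was 0.0670 without unstimulated replicate 4 and 0.145 with a pseudocount of 0.1. OSM raised the -0.99 kb promoter peak, from 7.53, 8.32, 6.55 and 5.07 per Mb to 15.6, 12.1, 15.4 and 12.2 (0.97, adjusted p = 0.000342). IL-13 raised the same peak to 12.3, 8.63, 14.9 and 13.5 per Mb (0.79, adjusted p = 0.0152), all above the unstimulated libraries, and this call was lost without unstimulated replicate 4 (adjusted p = 0.140) or IL-13 replicate 3 (0.106) or 4 (0.0602). OSM raised the +4.03 kb peak from a mean of 1.07 per Mb to 3.86, 4.26, 2.03 and 3.54 (1.33, adjusted p = 0.00648). It raised the -1.89 kb promoter peak from 1.45 to 3.47 per Mb (1.05, adjusted p = 0.0182), a call lost without unstimulated replicate 3 (0.0957) or 4 (0.0579), without OSM replicate 2 (0.0519) or 4 (0.0668), and under library totals (0.0905), median-of-ratios scaling (0.103) and loess offsets (0.115). TNF raised that peak to 4.30 per Mb (1.29, adjusted p = 0.00153).

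Several further CCL2 peaks were singled out after their values were seen. The more open of them had log2 differences near 1 with TNF. The -2.52 kb peak went from 12.0 to 24.0 per Mb (1.00, adjusted p = 4.59e-06), the -6.62 kb peak from 9.55 to 18.6 (0.94, adjusted p = 0.000123) and the -20.82 kb peak from 8.20 to 16.1 (0.94, adjusted p = 0.000239). Those close to the floor rose by more on the log2 scale, the -16.35 kb peak from 1.2 to 7.53 per Mb (2.30, adjusted p = 5.24e-08) and the exonic +1.35 kb peak from 0.736 to 5.11 (2.21, adjusted p = 1.58e-06). OSM raised the -6.62 kb peak as well, to 22.8, 22.6, 12.9 and 18.1 per Mb (0.95, adjusted p = 0.000147). TGFβ1 lowered the +2.67 kb peak, to 0.222, 0.301, 0.965 and 0.940 per Mb (-1.01, adjusted p = 0.0195). These TGFβ1 libraries overlap the unstimulated ones, and the call was lost without unstimulated replicate 2 (adjusted p = 0.180) or 3 (0.133) and without TGFβ1 replicate 1 (0.129) or 2 (0.103) and in a fit of those groups alone (0.0962).

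CCL7, which acts on monocytes like CCL2, had 3 peaks, of which 1 was called. Its start-site peak (chr17:34269907-34270407) held 2.62, 4.92, 5.32 and 5.41 per Mb unstimulated, and the group means ran from 4.13 with OSM to 6.02 with TNF. No cytokine was called there, the largest change being 0.40 with TNF (adjusted p = 0.511). The +5.84 kb peak (from chr17:34275808), chosen after its values were seen, held 9.73, 12.2, 12.6 and 10.1 per Mb unstimulated, and IL-1β lowered it to 6.39, 5.67, 8.18 and 7.26 (-0.66, adjusted p = 0.0342). The groups did not overlap, yet the call was lost without unstimulated replicate 2 (adjusted p = 0.123) or 3 (0.139) and without IL-1β replicate 1 (0.0923), 2 (0.153) or 4 (0.0562).

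CCL11, the eosinophil chemoattractant, had 3 of 18 peaks called, lowered by IL-1β and TGFβ1 at all 3 and raised at the start site by IL-13. At its start site (chr17:34285332-34285832, promoter class) the unstimulated libraries held 7.52, 9.38, 9.21 and 4.6 per Mb. IL-1β brought this to 2.19, 1.61, 2.44 and 2.33 per Mb (-1.59, SE 0.24, adjusted p = 1.01e-07) and TGFβ1 to 3.41, 3.98, 2.50 and 1.88 (-1.24, adjusted p = 8.61e-05), both with no overlap. OSM lowered it to 3.47, 4.09, 4.48 and 3.41 per Mb (-0.87, adjusted p = 0.0141), just below the lowest unstimulated library, and the call was lost without unstimulated replicate 2 (adjusted p = 0.0768) or 3 (0.0743) or OSM replicate 1 (0.0528). IL-13 raised it to 18.8, 10.6, 15.9 and 15.6 per Mb, all above the unstimulated libraries (0.96, adjusted p = 0.0125), and the call was lost without unstimulated replicate 4 (0.180) or IL-13 replicate 1 (0.0848). TNF, at 6.64 ± 1.26 per Mb, was not called (-0.17, adjusted p = 0.862). The IL-6 group had the second highest mean, 12.3 ± 7.19 per Mb, through replicate 4 at 22.9, and without that library the mean was 8.82 ± 1.80. IFNγ held 8.20, IL-22 5.75, IL-17A 5.35 and IFNα 5.03 per Mb, none called.

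A pair of distal CCL11 peaks fell as well. The +14.39 kb peak (from chr17:34299880), the second most open of the cluster, held 16.1, 15.6, 11.0 and 9.70 per Mb unstimulated and 9.37, 5.98, 5.52 and 3.15 with IL-1β, with no overlap (-1.12, adjusted p = 8.38e-07). TGFβ1 lowered it to 8.43, 6.53, 9.08 and 6.14 per Mb (-0.74, adjusted p = 0.00375), and the adjusted p was 0.124 with loess offsets. The +15.42 kb peak (chr17:34300909-34301409) was tight in unstimulated cells, at 4.59, 5.64, 5.05 and 5.04 per Mb, and fell with TNF to 1.89, 0.669, 2.16 and 2.16 (-1.40, adjusted p = 7.91e-05) and with IL-1β to 1.92, 1.86, 1.59 and 2.39 (-1.20, adjusted p = 0.00169). All libraries of both cytokines lay below all unstimulated ones, and it is the single member peak that TNF lowered. IFNα lowered it to 1.03, 3.12, 2.52 and 2.15 per Mb (-1.11, adjusted p = 0.0199), a call lost without unstimulated replicate 2 (adjusted p = 0.0792), 3 (0.0595) or 4 (0.0547) or IFNα replicate 1 (0.245). TGFβ1 lowered it to 2.56, 3.04, 2.38 and 1.48 (-0.99, adjusted p = 0.0163), a call lost without unstimulated replicate 2 (0.0601) or TGFβ1 replicate 4 (0.126) and under median-of-ratios scaling (0.0619) and loess offsets (0.0637). IL-13, at 5.89 per Mb, and IFNγ, at 4.65, were not called.

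**Figure D4:**
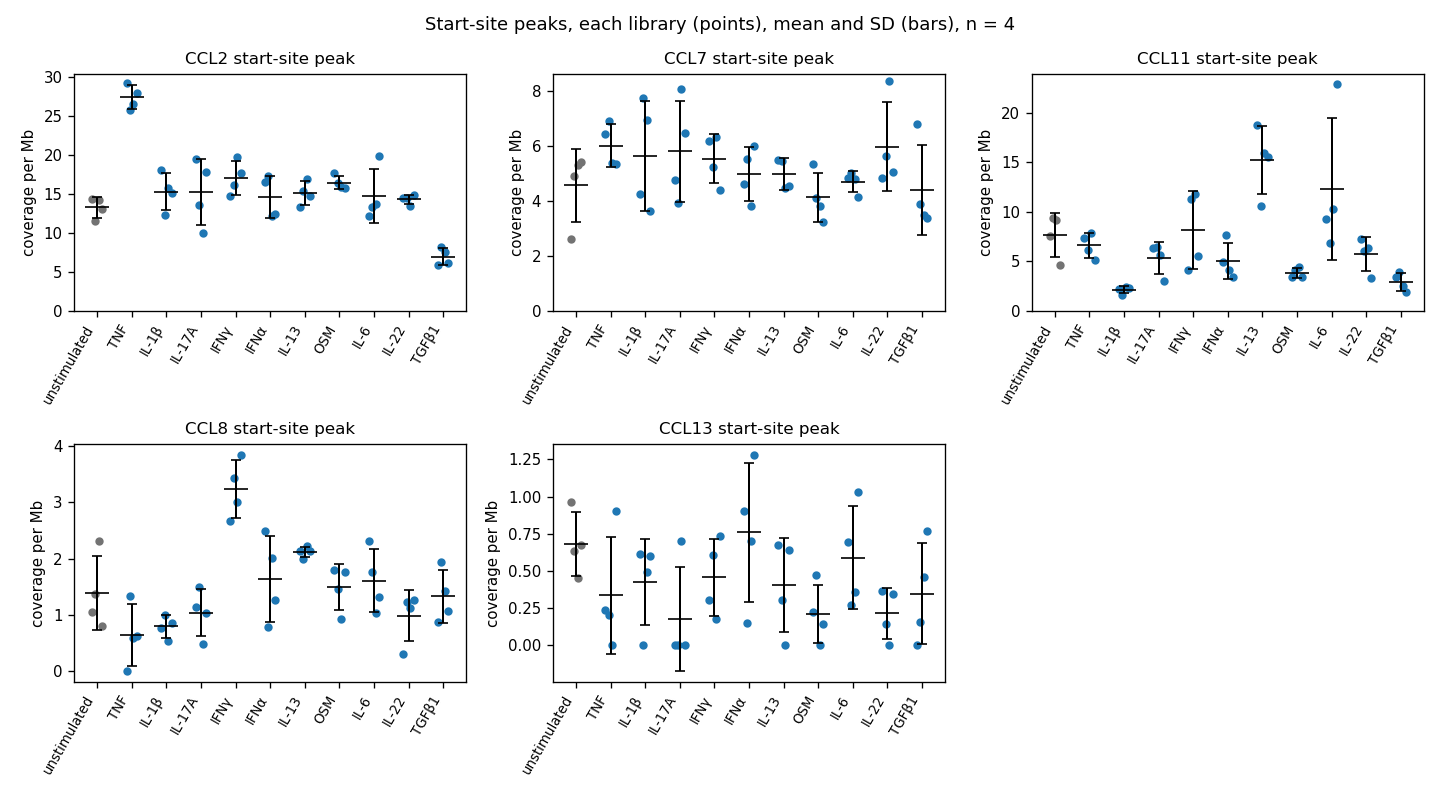
Coverage per Mb of the start-site peak of each of the 5 genes in every library (points), with the mean and SD of the 4 libraries of each of the 11 groups. The TNF libraries stand at 25.8 to 29.3 for CCL2, the IL-1β libraries at 1.61 to 2.44 for CCL11 and the IFNγ libraries at 2.66 to 3.84 for CCL8, while CCL13 stays near 0.

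CCL8, another monocyte chemoattractant, had a low start-site peak (chr17:34319197-34319697, classed exonic in the deposited table). Unstimulated libraries held 1.06, 1.38, 2.32 and 0.808 per Mb and IFNγ libraries 2.66, 3.44, 3.00 and 3.84, all higher, but the change of 1.03 was not called over all peaks (adjusted p = 0.141). In a fit of those groups alone the adjusted p was 0.0273. The depth was 16.4 to 30.0 read equivalents in the IFNγ libraries against 5.91 to 10.2 unstimulated. TNF, at 0, 1.34, 0.591 and 0.625 per Mb, was not called against unstimulated cells (-0.81, adjusted p = 0.239). IL-13 held 2.12 ± 0.0956 and IL-1β 0.792 per Mb.

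All CCL8 calls against unstimulated cells were at peaks away from the start site. The -12.06 kb peak (chr17:34307128-34307628), singled out after its values were seen, held 2.44, 3.23, 3.43 and 3.27 per Mb unstimulated and rose with 4 cytokines. TNF brought it to 10.6, 6.03, 11.7 and 10.7 per Mb (1.48, adjusted p = 8.85e-06), IFNγ to 7.99, 6.62, 6.66 and 7.19 (1.09, adjusted p = 0.00646), IFNα to 7.59, 8.25, 4.70 and 9.17 (1.11, adjusted p = 0.0121) and IL-1β to 8.17, 4.09, 6.46 and 5.88 (0.86, adjusted p = 0.0446). None of these libraries overlapped the unstimulated ones. The IL-1β call was lost without any unstimulated library (adjusted p = 0.172, 0.0815, 0.0658 and 0.0665 for replicates 1 to 4) and without IL-1β replicate 1 (0.216), 3 (0.123) or 4 (0.0914) and with a pseudocount of 0.1 (0.0726), and the IFNα call without unstimulated replicate 1 (0.0733) or IFNα replicate 2 (0.0604) or 4 (0.0851). The -10.86 kb peak, also chosen after its values were seen, held 0.215, 0.703, 0.227 and 0.146 per Mb unstimulated, or 1.00 to 3.71 read equivalents, and rose to 1.44, 2.77, 1.55 and 2.68 with TNF (1.67, adjusted p = 0.0015) and to 1.93 with IL-1β (1.60, adjusted p = 0.00367, or 0.0682 with a pseudocount of 0.1). In the other direction, the -7.21 kb peak (from chr17:34311979) fell from 3.20, 7.0, 6.24 and 3.55 per Mb to 1.92, 1.72, 1.58 and 1.44 with TGFβ1 (-1.28, adjusted p = 0.000208) and to 2.96, 1.62, 1.78 and 2.27 with OSM (-1.01, adjusted p = 0.00643). Both lay below the unstimulated libraries, and the OSM call was lost without unstimulated replicate 2 (0.0676). The +8.4 kb peak fell from 3.98 to 1.88 per Mb with OSM (-0.99, adjusted p = 0.0287), a call lost without unstimulated replicate 1 (0.0901) or 2 (0.0794) or OSM replicate 3 (0.197) or 4 (0.0944).

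CCL13, which acts on monocytes and eosinophils, was nearly closed at its start. That peak (chr17:34356200-34356700) held 0.963, 0.635, 0.448 and 0.674 per Mb unstimulated, its group means ran from 0.176 to 0.758, and no library exceeded 8.67 read equivalents. No cytokine was called there. The -1.68 kb promoter-class peak (chr17:34354555-34355055) was higher after 3 cytokines. It held 1.30, 1.64, 0.454 and 0.218 per Mb unstimulated, 3.06, 4.41, 2.33 and 3.14 with IFNγ (1.52, adjusted p = 0.0037) and 3.27, 3.22, 2.76 and 2.85 with OSM (1.46, adjusted p = 0.00309). Neither group overlapped the unstimulated one, and without unstimulated replicate 4 the adjusted p was 0.0823 for IFNγ and 0.0555 for OSM. IL-13 brought it to 3.47, 1.5, 3.47 and 3.65 per Mb (1.41, adjusted p = 0.0137), with replicate 2 inside the unstimulated range. That call was lost without unstimulated replicate 3 (adjusted p = 0.0812) or 4 (0.161) and without IL-13 replicate 1 (0.0576), 3 (0.0603) or 4 (0.0597) and with a pseudocount of 0.1 (0.0511). The IFNα libraries held 0, 0.667, 1.26 and 1.25 per Mb and were not called. TGFβ1 lowered the -5.2 kb peak from 2.24 to 0.806 per Mb (-1.19, adjusted p = 0.028), a call lost without unstimulated replicate 2 (0.0685), 3 (0.137) or 4 (0.0504) or TGFβ1 replicate 1 (0.325) and under library totals (0.0512) and median-of-ratios scaling (0.0634).

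**Figure D5:**
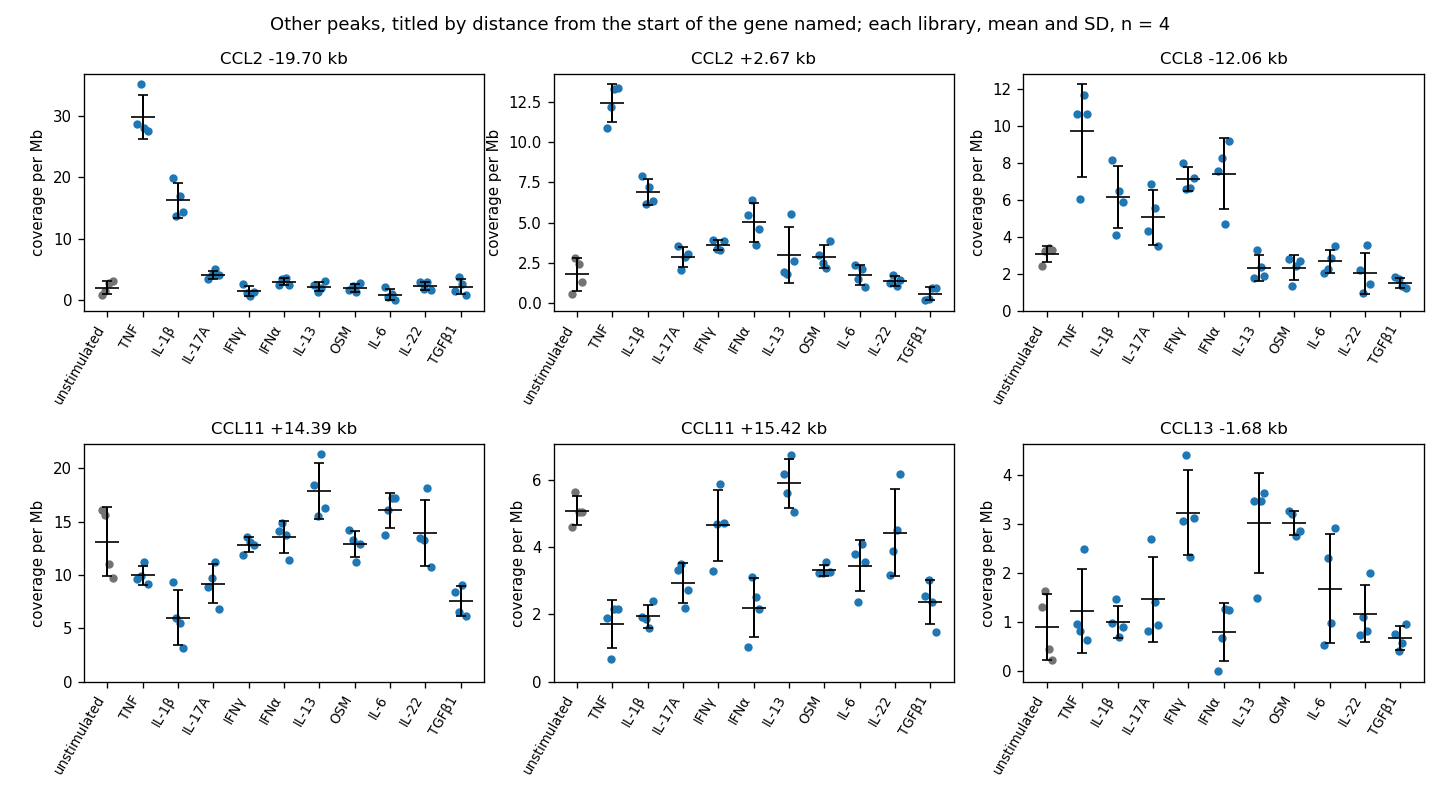
Coverage per Mb in every library (points) with the mean and SD of each group for 6 peaks away from the start sites, CCL2 -19.7 and +2.67 kb, CCL8 -12.06 kb, CCL11 +14.39 and +15.42 kb and CCL13 -1.68 kb. The TNF libraries of the CCL2 -19.7 kb peak lie at 27.5 to 35.1 against 0.896 to 3.13 unstimulated, and the CCL11 +15.42 kb peak falls from 4.59 to 5.64 unstimulated to 0.669 to 2.16 with TNF.

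Direct comparisons between cytokines, made in the same fit, ask where one cytokine gave another level than a second. IL-1β against TNF called 8 member peaks, all lower with IL-1β, 6 of CCL2 and 2 of CCL11, beside 1.32% of all peaks in either direction. The CCL2 start site was lower with IL-1β by a log2 difference of -0.83 (adjusted p = 0.000257) and the CCL11 start site by -1.43 (adjusted p = 1e-05). At the CCL2 -19.7 kb peak all IL-1β libraries lay below the TNF ones, but the difference of -0.86 (SE 0.29) did not pass (adjusted p = 0.132). At the CCL11 +14.39 kb peak the difference was -0.77 (adjusted p = 0.00561), and without IL-1β replicate 4 the adjusted p was 0.273. The remaining CCL2 differences were -1.37 at +3.35 kb (adjusted p = 0.00554), -0.95 at -6.62 kb (adjusted p = 0.000377), -0.70 at -2.52 kb (adjusted p = 0.0117), -1.32 at +1.35 kb (adjusted p = 0.0382) and -1.07 at +2.13 kb (adjusted p = 0.0489). At +3.35 kb the adjusted p was 0.123 without IL-1β replicate 4 and 0.0523 without TNF replicate 2 (0.0874 with a pseudocount of 0.1), at -6.62 kb it was 0.0614 without IL-1β replicate 2, and at -2.52 kb 0.0569 and 0.0865 without IL-1β replicates 3 and 4. The calls at +1.35 and +2.13 kb were lost without any of the 8 libraries of these groups, with adjusted p of up to 0.155 and 0.197, and with a pseudocount of 0.1 (0.295 and 0.168), library totals (0.0621 and 0.0825) and median-of-ratios scaling (0.0541 and 0.0692), the second also with loess offsets (0.0595).

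TNF against IFNγ called 21 member peaks, 18 higher and 3 lower with TNF (6.06% of all peaks called), and 16 of the 18 belong to CCL2. The CCL2 -19.7 kb peak differed by 4.02 (adjusted p = 3.99e-30) and the start site by 0.67 (adjusted p = 0.00169). The 3 peaks higher with IFNγ were the CCL8 start site (-1.85, adjusted p = 2.27e-05), the CCL11 +15.42 kb peak (-1.26, adjusted p = 0.000373) and the CCL13 -1.68 kb peak (-1.20, adjusted p = 0.0195). The last was lost without IFNγ replicate 2 (0.105) or TNF replicate 1 (0.0565), 2 (0.0773) or 4 (0.113) and with a pseudocount of 0.1 (0.0958). IL-1β against IFNγ called 13, 5 higher and 8 lower with IL-1β (5.78% of all peaks called), and under library totals the split was 7 and 7 and under median-of-ratios scaling 7 and 8. The CCL8 start site was lower with IL-1β than with IFNγ (-1.53, adjusted p = 0.0008), as was the CCL11 start site (-1.61, adjusted p = 3.25e-08). IFNγ and IFNα differed at 1 member peak (1.03% of all peaks called), CCL13 -1.68 kb, which was higher with IFNγ (1.66, adjusted p = 0.00187). Without IFNα replicate 1, which is at 0, the adjusted p was 0.0934. At the CCL8 start site the difference between the interferons was 0.87 and did not pass (adjusted p = 0.345).

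IL-1β against IL-17A called 7, 5 higher and 2 lower with IL-1β (2.14% of all peaks called), and the 5 all belong to CCL2. With loess offsets the split was 6 and 1. The CCL2 -19.7 kb peak differed by 1.84 (adjusted p = 4.23e-07) and the CCL11 start site by -1.11 (adjusted p = 0.00112). IL-13 against IL-1β called 20, 9 higher and 11 lower with IL-13 (8.01% of all peaks called). All start-site and distal CCL11 peaks described above were higher with IL-13, by 2.56 at the start (adjusted p = 1.81e-19), 1.58 at +14.39 kb (adjusted p = 9.99e-14) and 1.39 at +15.42 kb (adjusted p = 4.1e-05), while 8 CCL2 peaks were lower, the -19.7 kb peak by -2.63 (adjusted p = 3.46e-15). OSM against IL-6, cytokines whose receptors share the gp130 chain, called 4, with 2 in each direction (4.41% of all peaks called). Under library totals and median-of-ratios scaling the split was 1 and 2, and with loess offsets 0 and 3. The CCL11 start site was lower with OSM by -1.42 (adjusted p = 4.66e-06), and by -1.08 without IL-6 replicate 4 (adjusted p = 0.00272). The CCL2 -19.7 kb peak was higher with OSM by 1.01 (adjusted p = 0.0183) with all libraries, a call lost without IL-6 replicate 4, which holds 0.0483 per Mb there (0.62, adjusted p = 0.324), without IL-6 replicate 2 (0.0533) and without OSM replicate 2 (0.0731) or 4 (0.0875). It was also lost under library totals (0.0738), median-of-ratios scaling (0.0820), loess offsets (0.118), a pseudocount of 1 (adjusted p just above the threshold) and a fit of those groups alone (0.133).

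Whether the start sites of the 5 genes moved apart was tested for the 10 pairs of genes within each cytokine, by a two-sided exact permutation test of the differences of log2 values, whose smallest possible p is 0.0286 with 4 libraries against 4. With that limit at least 6 of the 10 pairs would have to be at the smallest p before any could pass the adjustment, so the adjusted values could hardly pass and say little. None did, the lowest adjusted p being 0.0714 with IL-1β. At the unadjusted p of 0.0286 there were 4 pairs with IL-1β, 3 each with TNF and TGFβ1, 2 each with OSM and IL-22, 1 each with IFNγ, IL-13 and IL-17A and 0 with IFNα and IL-6. With TNF the change at the CCL2 start exceeded that at the CCL8 start by 1.83, at the CCL13 start by 1.61 and at the CCL11 start by 1.19 on the log2 scale, and with IL-1β it exceeded that at the CCL11 start by 1.78.

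The other chemokine genes and the receptors were followed by all peaks that name them. Of 66 peaks of other CC chemokine genes on chromosome 17, TNF raised 4 and lowered 1. Of the raised peaks, 3 were distal peaks of CCL5, a chemoattractant of T cells and monocytes, with log2 differences of 2.55, 2.90 and 2.66, and 1 was a peak of CCL4L1 (1.22). The lowered peak belonged to CCL3L3 (-0.74). CCL4L1 and CCL3L3 have near-identical copies between which reads may be split, and their values are uncertain. IFNγ raised 2, in CCL1 (1.82) and CCL5 (1.41), and IFNα raised 1, in CCL1 (1.10). OSM raised 1, in CCL1 (1.04), TGFβ1 lowered 1, in CCL3L3, and IL-1β, IL-13, IL-17A, IL-6 and IL-22 called none. Of 110 peaks of CC chemokine genes on other chromosomes, TNF raised 4 and lowered 1, IL-1β raised 2 and lowered 1, OSM raised 4, IL-13 raised 2, IFNα raised 1 and TGFβ1 lowered 1. An intronic peak of CCL26, eotaxin-3, rose with IL-13 (1.67, adjusted p = 8.26e-11) and fell with TNF (-0.85) and IL-1β (-0.79). Among 77 peaks of receptor genes, OSM raised 6, in CCR1 and CCR3, TGFβ1 lowered 3, in CCR1, CCR3 and ACKR2, and IFNα raised 1 in CCR3 (2.08). TNF and IL-13 each lowered 1 in CCR3, and IL-1β lowered 1 in CCR1. Of all peaks, TNF raised 2.68% and lowered 1.46%, OSM raised 4.12%, TGFβ1 lowered 2.87% and IL-13 lowered 0.645%. The other shares are given above with the member counts. Counts on these lists were not tested against such shares and are given as descriptions.

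The promoter-class peaks of other genes whose 11 group means ran most like those of the CCL2 start site, among 21629 compared, belonged to MAP3K11 (Pearson r = 0.939), IBA57 (0.930), TNS1 (0.930), KLHL5 (0.919) and IKBKE (0.916). These are correlations over 11 group means of the same libraries, given as a description.

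Matches to the 5 motifs were counted in the full width of the peaks, on both strands. NF-κB matches were in 11 of the 80 member peaks, 13.8% against 8.5% of all peaks, and STAT matches in 25, 31.2% against 17.2%. STAT6 matches were in 15 (18.8% against 14.4%), AP-1 matches in 19 (23.8% against 25.7%) and ISRE matches in 19 (23.8% against 29.0%). Of the 20 peaks TNF raised, 6 held an NF-κB match, as did 5 of the 59 it did not call. AP-1 matches were in 7 of the 20 (12 of 59), ISRE matches in 6 (12 of 59), STAT matches in 8 (17 of 59) and STAT6 matches in 2 (12 of 59). The CCL2 -19.7 kb peak printed above held 4 NF-κB matches over its full width, 2 of which are in the printed part. IL-1β raised 9 peaks, of which 2 held an NF-κB match, as did 8 of the 66 not called. Among the 9, AP-1 matches were in 2 (16 of 66) and ISRE matches in 4 (14 of 66). STAT matches were in 4 (20 of 66) and STAT6 matches in 2 (11 of 66). Of the 4 peaks IFNγ raised, 3 held an ISRE match, as did 16 of the 76 not called, but 3 also held a STAT6 match (12 of 76 not called), 2 an NF-κB match (9 of 76), and 0 a STAT (25 of 76) or AP-1 (19 of 76) match. All 3 peaks raised by IL-13 held a STAT6 match, as did 12 of the 77 not called, 1 each held an NF-κB, an ISRE and a STAT match, and 0 an AP-1 match. With OSM 3 of 6 raised peaks held a STAT match, as did 22 of the 71 not called, and 2 of 6 held each of the other motifs. With IFNα 2 of 4 raised peaks held an ISRE match (16 of 75 not called) and 2 an AP-1 match (17 of 75). Each of the other motifs was in 1 of the 4. TGFβ1 lowered 8 peaks, of which 4 held a STAT match (21 of 72 not called) and 3 an ISRE match (16 of 72). STAT6 matches were in 2 of the 8 (13 of 72), and NF-κB and AP-1 matches in 1 each (10 and 18 of 72). In the 250 bases before the start, 5.2% of 35116 RefSeq promoters held an NF-κB, 6.6% an AP-1, 9.2% an ISRE, 6.6% a STAT and 5.4% a STAT6 match. These matches are descriptions of sequence, and no factor was measured.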

How the data were processed

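Omni-ATAC libraries were made and sequenced by the authors, who used the ENCODE ATAC-seq pipeline on hg38 with MACS2 (tools and build also in the submitters' processing notes). Each deposited value is a signal, the per-base read coverage added up across a peak, unscaled for depth. How the 500-base peaks of the table were chosen is not given in the sources used here. The study's methods test counts in peaks, while coverage sums are not counts, so limma 3.58.1 (R 4.3.3) was used on a log2 scale, as in the design.

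Coverage was divided by the library total in Mb and by a trimmed-mean composition factor (0.861 to 1.18, trims of 30% and 5%), 0.5 was added and log2 taken, which understates changes of low peaks. Peaks at a log2 mean of -3 or below were left out (209), and 407174 were tested in 1 fit of 44 libraries with group as the only term, with eBayes and a mean-variance trend. P-values were Benjamini-Hochberg adjusted over all tested peaks of a contrast. A read equivalent is 75 bases, the most frequent low value. The scripts were tested on simulated data. Tables and motif searches used Python 3.11.15 and pandas 2.3.3, and positions came from GENCODE 44.

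The members, lists and tests were chosen with earlier results of these data known. Named peaks are the start-site peak of each gene, up to 3 raised and 3 lowered called peaks per cytokine with the largest change, and the most open unstimulated peak. Others are said to have been chosen after their values were seen. Where such a peak is given for a second cytokine it is described for that reason only. Alternatives were library totals, median-of-ratios scaling, loess offsets, pseudocounts of 0.1 and 1, no filter and a stricter one (log2 above 0), quality weights, fits of 2 groups only, a replicate block, leaving out each library, and, added after seeing the data, leaving IL-6 replicate 4 out of the shared fit. Part of the list of receptor genes is not reported here.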

Additional observations from a re-analysis of the deposited data

Results flagged for a closer look

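Of 209 groups of 4 libraries at the 19 named peaks, 10 held a library far from the other 3, where chance gives about 1 in 20. The library labelled IL-6 replicate 4 stood high at the CCL2 +3.35 kb peak (5.64 per Mb) and the CCL2 +4.03 kb peak (6.95 per Mb), and that library has the lowest coverage of the series. Without it the IL-6 mean was 1.23 ± 0.296 per Mb at the former, and the other libraries held 0.511, 0.981 and 0.994 per Mb at the latter. TNF replicate 2 was the highest of its group at the CCL2 -19.7 kb peak (35.1 per Mb). IL-13 replicate 2 was the lowest at the CCL13 -1.68 kb peak (1.5 per Mb). IL-17A replicate 2 stood apart at the CCL2 +2.13 kb peak (1.21 per Mb) and replicate 3 at the CCL2 -0.99 kb peak (7.31 per Mb) and the CCL13 start site (0.703 per Mb, the others at 0). TGFβ1 replicate 1 stood apart at the CCL7 start site (6.82 per Mb), OSM replicate 3 at the CCL11 +15.42 kb peak (3.56 per Mb) and IL-22 replicate 1 at the CCL8 start site (0.309 per Mb).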

How the results depend on the processing

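Of 32 counts of called or matched peaks and pairs, 18 stayed within 1.5 times their value under every alternative tried. The 32 include a pair count for each cytokine, and no pair passed, which the smallest possible p hardly allowed. Such counts could hardly move, so the 18 say less about the counts of called peaks. Of the calls at single peaks, 31 of 64 against unstimulated cells and 41 of 74 between cytokines passed under every alternative. Of 3442 alternative values, 0 reversed the sign of a call or made an uncalled change a call of the opposite sign. Sign changes of values that stayed uncalled were not counted. Of 2616 alternatives to a call, 277 lost it, 211 of them by leaving out a library. The number of member peaks called went from 14 to 9 with IL-1β, from 8 to 5 for IL-1β against TNF and from 20 to 12 for IL-13 against IL-1β at a pseudocount of 0.1. In fits of 2 groups only it went from 4 to 7 with IFNγ and from 8 to 14 for IL-1β against TNF. IFNγ against IFNα went from 1 to 2 under library totals, median-of-ratios scaling, a pseudocount of 1, the stricter filter, 2 groups only and IL-6 replicate 4 left out, and to 3 with quality weights. In the central 300 bases, ISRE matches were in 11 rather than 19 member peaks and STAT matches in 14 rather than 25. The cause was not tested, beyond fewer bases searched in the last case.

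Leaving out 1 library gave 18 to 19 calls with TNF, 8 to 12 with IL-1β, 1 to 6 with IFNγ, 3 to 5 with IFNα, 0 to 3 with IL-13, 5 to 8 with OSM, 4 to 9 with TGFβ1, 0 to 1 with IL-6 and 0 to 0 with IL-17A and IL-22. Between cytokines it gave 3 to 7 for IL-1β against TNF, 18 to 21 for TNF against IFNγ, 11 to 13 for IL-1β against IFNγ, 0 to 3 for IFNγ against IFNα, 3 to 7 for IL-1β against IL-17A, 2 to 4 for OSM against IL-6 and 11 to 18 for IL-13 against IL-1β. The lowest counts came without unstimulated replicate 4 for IFNγ (1) and IL-13 (0), without IL-1β replicate 4 for IL-1β (8), without unstimulated replicate 2 for OSM (5) and TGFβ1 (4) and without IFNα replicate 1 for IFNγ against IFNα (0). The groups share replicate numbers, but same-numbered libraries did not deviate together (10 of 44 correlated best with their own number). With the replicate number as a block the TGFβ1 count was 9 in place of 8, and no other count changed.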
